A study of Mus musculus and synthetic construct with 15 samples.

Results

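Reporter activity in mouse heart was measured for 25 short genomic regions that lie in or beside 6 genes of metabolism, Ampd3, Sardh, Ddc, Idh2, Coq8a and Mb. They are 25 of the 3820 regions in the pool, each 400 bp long. A region was taken where 1 of these genes had the nearest protein-coding gene body (RefSeq, GRCm38, the same build as mm10) to the region's midpoint, within 100 kb. The farthest of them lay 65300 bp from its gene. The Sardh locus held 6 regions, Ampd3 and Ddc 5 each, Mb 4, Idh2 3 and Coq8a 2. The 6 genes were chosen with results of these libraries known, and which values picked each gene is not recorded. The difference between atrium and ventricle is therefore treated as the measure they were chosen on and is given as a description. Calls on it from the fit of all regions are counted below, but they are no independent support for the members. RNA over DNA uses the same RNA libraries and may also have played a part in the choice. Its p-values do not allow for that.

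A pool of candidate heart enhancers was packaged in adeno-associated virus (AAV9) and given to wild-type mouse pups on postnatal day 0. Atria and ventricles were taken on postnatal day 7, and the labels name the RNA as that of cardiomyocytes. The 3 groups of 5 libraries were reporter RNA from wild-type atria, reporter RNA from wild-type ventricles and DNA of the AAV9 library itself, which is the control for how often each region was delivered. Nothing in the labels says that replicates came from separate animals, so p-values reflect only how these samples vary, and that variation may be technical. The files count reporter regions and no marker genes, so the labelled cell type was not checked here.

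The 6 genes serve different branches of muscle and heart chemistry. Mb encodes myoglobin, which stores oxygen in heart and slow skeletal muscle, and Idh2 encodes the mitochondrial isocitrate dehydrogenase that makes NADPH. Coq8a is an atypical kinase needed for the synthesis of coenzyme Q, the electron carrier of the respiratory chain. Ampd3 removes the amino group from AMP. Sardh oxidises sarcosine to glycine in mitochondria, and Ddc decarboxylates aromatic amino acids to make dopamine and serotonin. An enhancer is a stretch of DNA that raises transcription from a promoter, and in this assay the RNA of a region is read against its DNA. The nearest gene is a name for the place and does not show which gene a region acts on. No region overlapped an annotated promoter window in the table used here, and whether a region is exonic or intronic was not determined.

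Library totals ran from 877773 to 3781726 counts, so a region at 0 counts could hold up to 0.793 to 3.42 CPM (the count relative to the library total), taking 3 counts as the limit and covering counting error only. The RNA libraries of replicate 1 stood apart from the other RNA libraries. They were the shallowest of their chambers, at 877773 counts in atrium and 1271527 in ventricle, and their deviations from the chamber means correlated at 0.82 over regions, against 0.23 to 0.24 for the other 4 same-numbered pairs of an atrial and a ventricular library. All CPM below are on 1 scale, with TMM factors (edgeR's scaling to the bulk of the regions) over the 15 libraries. The log2 values come from fits with TMM factors of only the libraries compared. Values of different comparisons are thus on separate scales and need not add up or match the CPM. Positions in kb give the distance of the midpoint from the nearest annotated start, with a minus sign for upstream.

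Of the 25 regions, 24 averaged 10 or more counts in the DNA libraries and were tested with edgeR among 2601 such regions. Atrial RNA was higher than DNA, at an adjusted p under 0.05, for 9 of the 24 and lower for 9. Over all tested regions 38.4% were higher and 36.3% lower. Ventricular RNA was higher than DNA for 9 and lower for 11, against 43.4% and 37.8% of all tested regions. The members' counts were thus near those of the pool. The median log2 RNA over DNA was -0.00 in atrium and -0.06 in ventricle, beside 0.04 and 0.13 over all tested regions. The 2 comparisons share the DNA libraries. Across the chambers, 7 regions passed above DNA in both and 8 passed below it in both, and 1, at Idh2, was lower in atrium and higher in ventricle. In the pool, the share above DNA in both ran from 23.7% (Neg) to 42.3% (MTF or P300) over the deposited group labels. The pool's share below DNA in both was not counted, and nothing is read from these joint counts. The splits above and below DNA depend on the scaling. With library totals in place of TMM, 13 regions passed above DNA and 4 below it in atrium, against 13 and 8 in ventricle, while the median of all tested regions moved to 0.51 and 0.50. Without replicate 1, 17 of the 24 were called in atrium and 19 in ventricle, against 18 and 20 with it.

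RNA over DNA also moved with how common a region was in the pool. Among the 854 tested regions with a mean of 10 to 100 DNA counts, the median log2 RNA over DNA was 1.21 in atrium and 1.43 in ventricle. Among the 570 with 100 to 300 it was 0.20 and 0.28, and among the 1177 with at least 300 it was -0.66 and -0.69. The part of DNA abundance in the values of single regions was not tested, and each region is therefore also given its percentile in log2 RNA over DNA among those of its DNA count class (10 to 100, 100 to 300, or at least 300). The classes are broad, and a percentile does not account for where in its class a region lies.

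**Figure D1:**
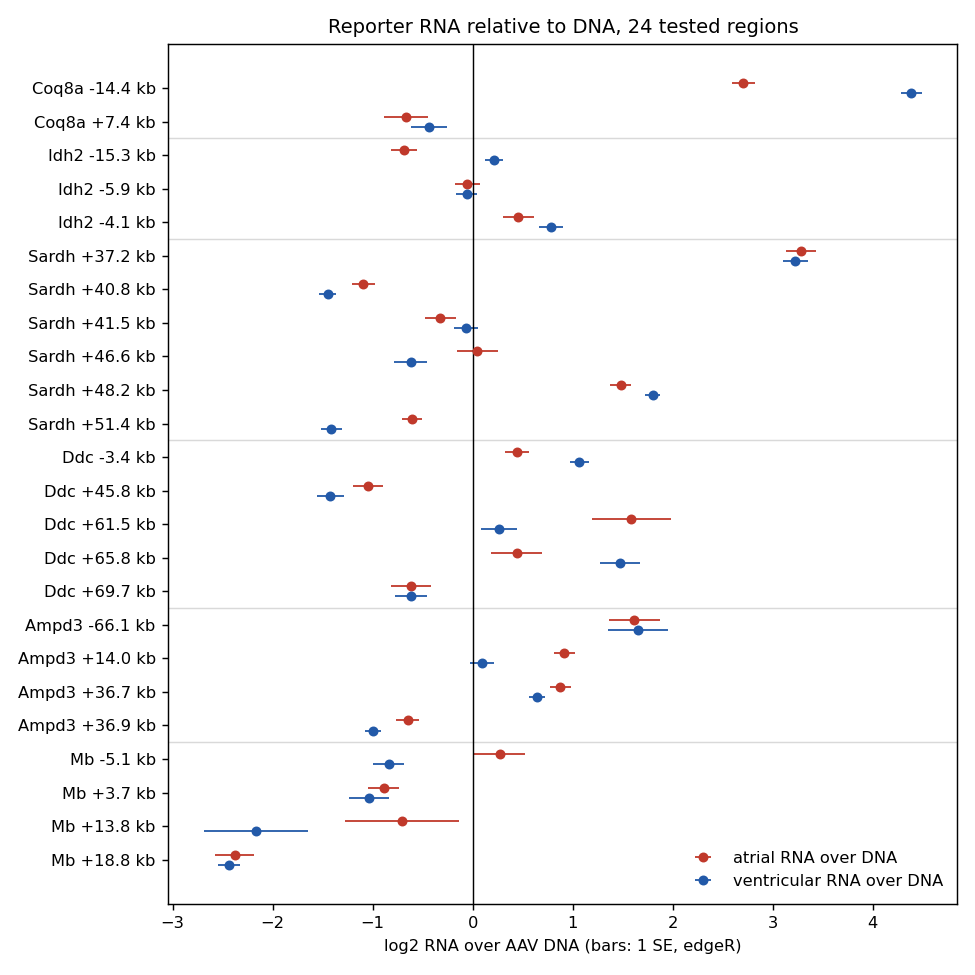
Log2 of reporter RNA over AAV DNA (x axis, edgeR, bars 1 SE, 5 RNA and 5 DNA libraries) for the 24 tested regions, grouped by gene, with atrial RNA in red and ventricular RNA in blue. Coq8a -14.4 kb and Sardh +37.2 kb stand farthest to the right, and Mb +18.8 kb lies far to the left in both chambers.

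The 2 regions of Coq8a differed widely in RNA output. The upstream region, at chr1:180210183-180210582, lies 14362 bp outside the gene body, and the next gene, Psen2, is 16622 bp away. Its DNA stood at 96.8, 96.4, 76.8, 105 and 103 CPM in the 5 libraries. Its atrial RNA stood at 674, 616, 614, 709 and 668 CPM, and its ventricular RNA at 2188, 1716, 1913, 1821 and 2015 CPM. The 3 groups did not overlap anywhere: every atrial library was above every DNA library and every ventricular library above every atrial one. RNA was 6.54-fold over DNA in atrium (log2 2.71 ± 0.12 SE, adjusted p = 1.32e-10) and 20.9-fold in ventricle (log2 4.39 ± 0.10 SE, adjusted p = 1.94e-15). The ventricular value ranked 69 of 2601 from the highest. Among the 570 regions with 100 to 300 DNA counts it was at percentile 98.4, and the atrial value at percentile 93.5.

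Its chamber difference was the largest of the 24 in absolute size, log2 -1.56 ± 0.08 SE for atrium over ventricle. The same-numbered libraries gave 2.57 to 3.25 times more RNA in ventricle. It ranked 14 of 2601 from the ventricular end. The other region, at chr1:180185908-180186307 inside the gene (+7.4 kb), had mean levels of 98.6 CPM in atrium, 106 CPM in ventricle and 149 CPM in DNA. It was below DNA at log2 -0.66 ± 0.22 SE in atrium (adjusted p = 0.0146) and -0.44 ± 0.18 SE in ventricle (adjusted p = 0.0373). Both calls were narrow. With library totals they were lost, at log2 -0.19 (adjusted p = 0.471) in atrium and -0.07 (adjusted p = 0.768) in ventricle, and scaling on the Neg regions and a DNA mean of at least 100 lost both too. Leaving out DNA replicate 5 gave adjusted p = 0.0522 in atrium and 0.0809 in ventricle, and leaving out DNA replicate 2 or 4 or ventricular replicate 2, 3 or 5 gave 0.0530, 0.0840, 0.0689, 0.0528 and 0.0636 in ventricle. In its DNA count class this region was near the middle, at percentile 49.4 in atrium and 58.5 in ventricle. Within a library, where depth and scaling cancel, the upstream region had 0.57 to 0.71 times the counts of the inner one in DNA, 5.34 to 13.0 times in atrium and 11.4 to 26.9 times in ventricle. The 2 regions thus changed places between the virus and the RNA in all 10 RNA libraries.

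By correlation of log2(CPM + 1) over the 10 RNA libraries, regions most like the upstream Coq8a region included chr1:189933504-189933903 (r = 0.994) and chr1:91015540-91015939 (r = 0.991). The former lies beside Smyd2, a lysine methyltransferase of heart and muscle, and the latter in Lrrfip1. They were picked for this likeness out of all tested regions, and the points share libraries and fall into the 2 chambers, so r is a description with no p. Their log2 atrium over ventricle was -1.16 and -1.24. Such a correlation does not compare levels. Log2 RNA over DNA was 0.02 in atrium and 1.31 in ventricle beside Smyd2, and 2.37 and 3.73 in Lrrfip1.

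The 3 regions of Idh2 all lie upstream of the gene, and their chamber patterns differed. The farthest, chr7:80130434-80130833 at -15.3 kb, was common in the virus, with DNA at 1424, 1359, 1601, 1200 and 1379 CPM. Its atrial RNA stood at 870, 822, 761, 789 and 1265 CPM and its ventricular RNA at 1719, 1621, 1601, 1508 and 1338 CPM. No atrial library reached a ventricular one, although atrial replicate 5 came close. Atrial RNA was below DNA (log2 -0.69 ± 0.13 SE, adjusted p = 2.98e-04), a call that was lost with library totals (log2 -0.21, adjusted p = 0.128). Scaling on the Neg regions and a DNA mean of at least 100 lost it too. Ventricular RNA was above DNA by only log2 0.22 ± 0.09 SE (adjusted p = 0.0339). That call was lost on leaving out any of DNA replicates 1, 2, 4 and 5 or ventricular replicates 1 to 4. The values were then 0.10 to 0.22. It was also lost with DESeq2 (log2 0.12, DESeq2 adjusted p = 0.281) and with replicates 2 to 5 alone. A ventricular excess over DNA was thus not settled. Atrium over ventricle was log2 -0.79 ± 0.13 SE, and -0.95 without atrial replicate 5.

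The Idh2 region nearest the gene, chr7:80119213-80119612 at -4.1 kb and 804 bp outside the annotated body, was above DNA in both chambers. Its DNA stood at 187, 170, 195, 165 and 174 CPM, its atrial RNA at 329, 229, 278, 261 and 177 CPM and its ventricular RNA at 256, 380, 319, 272 and 247 CPM. All ventricular libraries were above all DNA libraries, while atrial replicate 5 fell among them. The log2 RNA over DNA was 0.46 ± 0.16 SE in atrium (adjusted p = 0.0172) and 0.78 ± 0.12 SE in ventricle (adjusted p = 1.84e-05). The atrial call was lost with no DNA filter (log2 0.32, edgeR adjusted p = 0.0789). The chamber difference was -0.21 ± 0.17 SE, little more than its error. The middle region, chr7:80121088-80121487 at -5.9 kb, had mean levels of 417, 381 and 414 CPM in atrium, ventricle and DNA. It passed in neither chamber at log2 -0.05 and -0.06, and with library totals both values turned to 0.43 and 0.32 and passed. Among regions with at least 300 DNA counts, the percentiles in atrium and ventricle were 48.3 and 76.5 at -15.3 kb, 70.8 and 68.8 at -5.9 kb, and 81.7 and 86.2 at -4.1 kb.

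Sardh had 6 regions between 37.2 and 51.4 kb downstream of its start, all inside the gene body, with the neighbouring gene Dbh, which makes noradrenaline from dopamine, 12720 to 26902 bp from them. They held members above DNA as well as members below it. The region at chr2:27209907-27210306 (+37.2 kb) was rare in the virus, at 36.9, 30.0, 37.3, 28.8 and 28.3 CPM. Its RNA stood at 312, 339, 313, 407 and 270 CPM in atrium and at 269, 294, 312, 292 and 287 CPM in ventricle. It was far above DNA in all 10 RNA libraries, and the chambers overlapped. RNA was 9.73-fold over DNA in atrium (log2 3.28 ± 0.15 SE, adjusted p = 2.53e-10) and 9.38-fold in ventricle (log2 3.23 ± 0.12 SE, adjusted p = 3.07e-13). Its chamber difference was log2 0.17 ± 0.12 SE. Its identifier carries the tag aMTF+p300, which is given as deposited. Among the 854 regions with 10 to 100 DNA counts it was at percentile 85.5 in atrium and 84.2 in ventricle.

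The Sardh region at chr2:27198901-27199300 (+48.2 kb) was at 949 ± 118 CPM in atrium, 1088 ± 59.6 CPM in ventricle and 324 ± 24.8 CPM in DNA (SD, n = 5). It was above DNA at log2 1.48 ± 0.11 SE in atrium (adjusted p = 2.01e-08) and 1.80 ± 0.08 SE in ventricle (adjusted p = 1.60e-12). Among the 1177 regions with at least 300 DNA counts these were percentiles 95.3 and 95.4, the highest places of any of the 15 such members in each chamber. By percentile in its own DNA count class, this region stood higher than the +37.2 kb region, whose fold over DNA was larger. The 2 classes differ and are broad, so this order may depend on their limits, which was not tested.

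The largest chamber difference in the Sardh locus was at chr2:27195725-27196124 (+51.4 kb). Its atrial RNA stood at 257, 333, 316, 333 and 386 CPM, its ventricular RNA at 141, 195, 158, 168 and 193 CPM and its DNA at 476, 440, 533, 457 and 469 CPM. The 3 groups were apart, with DNA highest and ventricle lowest, so this region differed between chambers while giving less RNA than its DNA in both. Atrium over ventricle was log2 0.92 ± 0.15 SE, with ratios of 1.70 to 2.0 in the 5 same-numbered pairs. RNA over DNA was log2 -0.61 ± 0.10 SE in atrium (adjusted p = 7.89e-05) and -1.41 ± 0.10 SE in ventricle (adjusted p = 1.31e-09). The atrial call was lost with library totals (log2 -0.13, adjusted p = 0.254), and with scaling on the Neg regions and a DNA mean of at least 100. The region at chr2:27206275-27206674 (+40.8 kb) had the same order of groups, with 478 to 732 CPM in atrium, 353 to 453 in ventricle and 1053 to 1265 in DNA. Its RNA over DNA was log2 -1.09 ± 0.11 SE and -1.45 ± 0.09 SE (adjusted p = 7.74e-07 and 1.09e-10).

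The other two Sardh regions were nearer to DNA. At chr2:27200538-27200937 (+46.6 kb) the means were 112 CPM in atrium, 65.1 in ventricle and 103 in DNA, and only ventricular RNA passed, at log2 -0.62 ± 0.17 SE (adjusted p = 2.59e-03). That call was lost with library totals (log2 -0.25, adjusted p = 0.211) and with a DNA mean of at least 100. Its atrium over ventricle was 0.78 ± 0.24 SE. At chr2:27205603-27206002 (+41.5 kb) neither chamber passed, at log2 -0.32 ± 0.15 SE and -0.07 ± 0.12 SE. With library totals its ventricular value turned to 0.31 and passed, and without atrial replicate 3 its atrial value of -0.44 passed (adjusted p = 0.0112). In their DNA count classes the percentiles in atrium and ventricle were 52.0 and 23.0 at +51.4 kb, 31.8 and 21.8 at +40.8 kb, 43.7 and 20.4 at +46.6 kb, and 61.3 and 68.7 at +41.5 kb. Regions below DNA were thus not all low within their DNA count class.

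The 5 regions of Ddc spread over the gene body and its upstream side, and every chamber pattern occurred among them. The region 3442 bp upstream, chr11:11901387-11901786 (-3.4 kb), had atrial RNA at 202, 279, 323, 264 and 305 CPM, ventricular RNA at 470, 378, 357, 358 and 383 CPM and DNA at 189, 188, 182, 203 and 200 CPM. All ventricular libraries were above all others, and atrial replicate 1 fell to the level of the DNA. RNA over DNA was log2 0.44 ± 0.12 SE in atrium (adjusted p = 5.13e-03) and 1.07 ± 0.09 SE in ventricle (adjusted p = 1.65e-08). The chamber difference was log2 -0.50 ± 0.14 SE, and -0.33 without replicate 1 of either chamber.

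The region at chr11:11828700-11829099 (+61.5 kb) leaned the other way. Its atrial RNA stood at 67.4, 85.7, 73.6, 87.5 and 315 CPM, its ventricular RNA at 35.5, 58.3, 48.0, 38.9 and 49.4 CPM and its DNA at 39.1, 42.7, 41.2, 32.3 and 44.6 CPM. The atrial libraries were above all others, but replicate 5 was far above the other 4 and set much of the mean. Atrial RNA over DNA was log2 1.59 ± 0.40 SE (adjusted p = 2.72e-03), and 0.91 without that library (adjusted p = 4.07e-04). The log2 atrium over ventricle was 1.45 ± 0.41 SE with it and 0.76 without it. Ventricular RNA did not pass against DNA at 0.26 ± 0.18 SE, and passed with library totals at 0.64.

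Farther into Ddc, at chr11:11824440-11824839 (+65.8 kb), the higher chamber was the ventricle. Ventricular RNA stood at 81.8, 59.3, 68.1, 96.3 and 117 CPM, atrial RNA at 29.4, 42.6, 59.6, 31.5 and 61.4 CPM and DNA at 29.8, 25.9, 28.4, 34.0 and 39.7 CPM. Ventricular replicate 2 lay among the highest atrial libraries, and ventricle was higher in all 5 same-numbered pairs. Ventricular RNA was above DNA at log2 1.47 ± 0.20 SE (adjusted p = 4.49e-06), and atrial RNA did not pass at 0.44 ± 0.25 SE (0.92, passing, with library totals). The log2 atrium over ventricle was -0.91 ± 0.27 SE, and -0.76 without ventricular replicate 5. Within a library, the +61.5 kb region had 1.23 to 5.14 times the counts of the +65.8 kb region in atrium, 0.404 to 0.983 times in ventricle and 0.949 to 1.65 times in DNA. The order of these neighbours was thus opposite in atrium and ventricle in every library.

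The remaining Ddc regions were below DNA. The region at chr11:11844373-11844772 (+45.8 kb) fell from 980 CPM in DNA to 496 in atrium (log2 -1.04 ± 0.15 SE, adjusted p = 2.15e-05) and 352 in ventricle (log2 -1.42 ± 0.13 SE, adjusted p = 9.56e-08). Its atrium over ventricle was 0.49 ± 0.18 SE, and 0.32 without atrial replicate 5. The region at chr11:11820498-11820897 (+69.7 kb) was at 58.4, 54.2 and 85.5 CPM in atrium, ventricle and DNA. Its log2 RNA over DNA was -0.62 in atrium (adjusted p = 0.0135) and -0.61 in ventricle (adjusted p = 2.11e-03). The atrial call was lost without replicate 1 (log2 -0.41, adjusted p = 0.0902) and without DNA replicate 1, 2 or 5 (adjusted p = 0.0660, 0.0539 and 0.0631). With library totals both calls were lost, at -0.14 and -0.25. A DNA mean of at least 100 lost both too, and scaling on the Neg regions lost the atrial one. In their DNA count classes, the Ddc region at -3.4 kb was at percentile 81.6 in atrium and 89.5 in ventricle, that at +61.5 kb at 58.1 and 23.0, and that at +65.8 kb at 30.2 and 50.8. The region at +45.8 kb was at 33.6 and 22.5, and that at +69.7 kb at 22.1 and 20.7. Of the 5, the upstream region thus had the highest percentile in its DNA count class in both chambers.

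**Figure D2:**
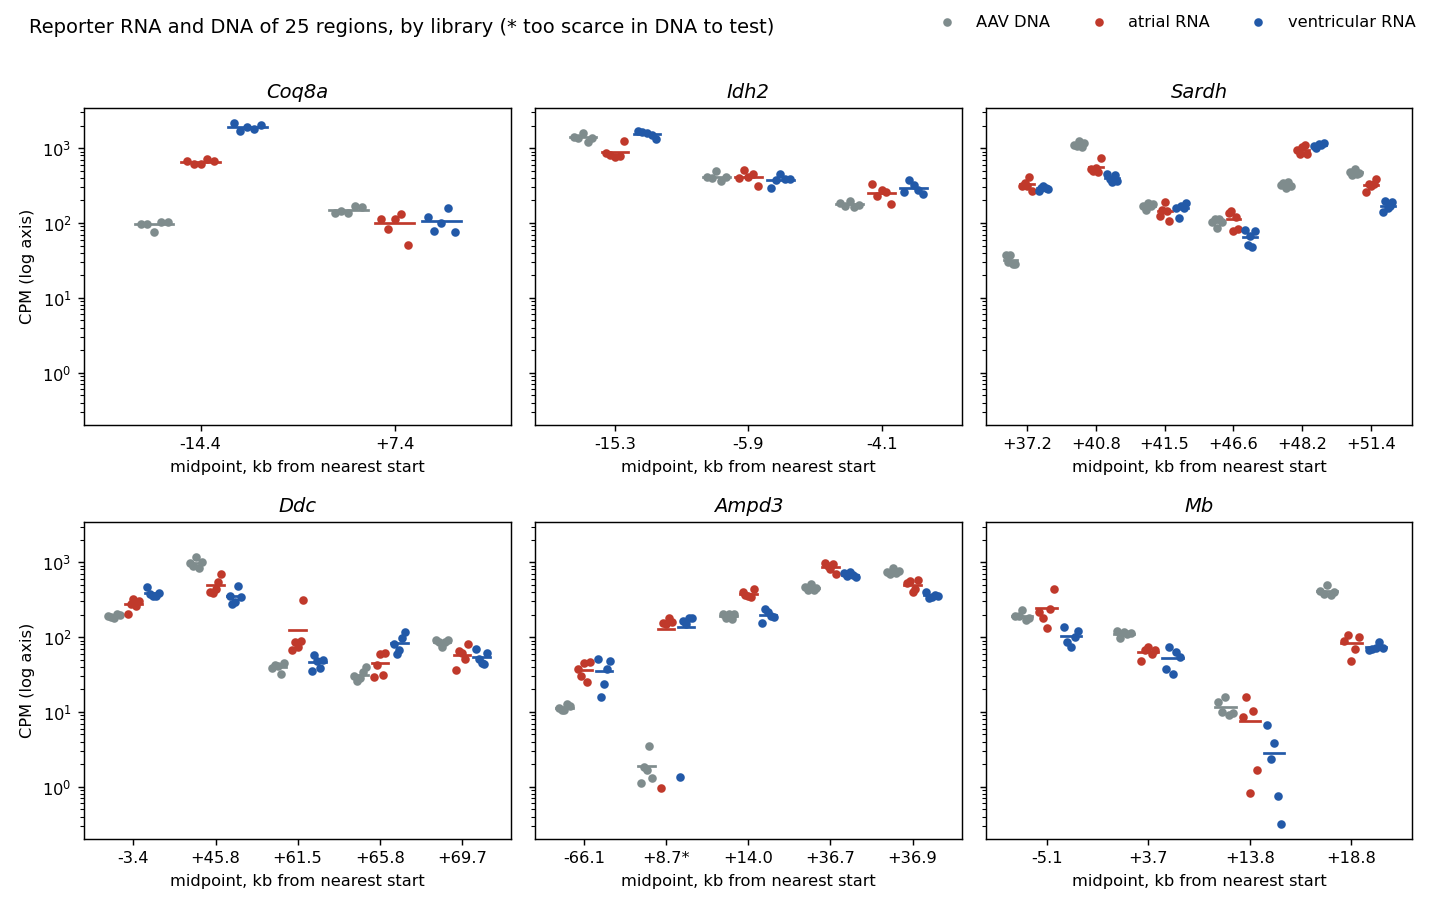
CPM in each of the 15 libraries (y axis, log scale) for the 25 regions, 1 panel a gene, with DNA in grey, atrial RNA in red and ventricular RNA in blue; short lines are group means and the x axis gives the midpoint in kb from the nearest start. Coq8a -14.4 kb shows 3 separate levels, while at Ampd3 +8.7 kb 1 library in each chamber lies near 1 CPM and the others between 151 and 180.

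At Ampd3 all 4 tested regions had a mean atrial level above the ventricular one. At the most distant of them that difference was far within its error. The region at chr7:110787388-110787787 (+14 kb, inside the gene) had the widest chamber difference. Its atrial RNA stood at 402, 361, 352, 341 and 441 CPM, its ventricular RNA at 155, 240, 215, 192 and 185 CPM and its DNA at 203, 181, 204, 174 and 201 CPM. Atrial libraries were above all others, and the ventricular ones lay around the DNA. Atrial RNA was 1.89-fold over DNA (log2 0.92 ± 0.11 SE, adjusted p = 3.48e-06), at percentile 90.1 of regions with at least 300 DNA counts. Ventricular RNA did not pass at 0.10 ± 0.12 SE (0.47, passing, with library totals). Atrium over ventricle was log2 0.94 ± 0.14 SE.

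The most distant member, chr7:110702291-110702690 at -66.1 kb, had the largest RNA over DNA of the 4 tested regions of the locus. DNA stood at 11.2, 10.5, 10.6, 12.6 and 11.9 CPM, atrial RNA at 37.0, 29.9, 44.8, 25.3 and 46.2 CPM and ventricular RNA at 50.3, 15.6, 23.9, 37.6 and 47.5 CPM. Every RNA library was above every DNA library, and the chambers overlapped over most of their range. Atrium over ventricle was log2 0.08 ± 0.34 SE, and -0.12 without ventricular replicate 2. Ventricle was higher in 3 same-numbered pairs and atrium in 2. RNA over DNA was log2 1.61 ± 0.25 SE in atrium (adjusted p = 5.84e-05) and 1.66 ± 0.30 SE in ventricle (adjusted p = 9.15e-05), which is percentile 58.4 and 54.6 of regions with 10 to 100 DNA counts. Within that class it was thus near the middle.

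A pair of Ampd3 regions overlapped each other and gave opposite results against DNA. They lie at chr7:110810106-110810505 (+36.7 kb) and chr7:110810317-110810716 (+36.9 kb), share 189 bp and are offset by 211 bp. Both midpoints are also inside the body of Rnf141, a RING finger gene. The +36.7 kb region stood at 973, 892, 824, 955 and 701 CPM in atrium, 711, 661, 729, 676 and 632 CPM in ventricle and 460, 426, 505, 424 and 450 CPM in DNA. The +36.9 kb region stood at 520, 560, 395, 434 and 587 CPM in atrium, 404, 335, 343, 370 and 356 CPM in ventricle and 733, 704, 831, 709 and 775 CPM in DNA. The one that was rarer in the virus gave the more RNA in all 10 RNA libraries. Against DNA, the +36.7 kb region was higher, at log2 0.88 ± 0.10 SE in atrium and 0.65 ± 0.08 SE in ventricle (adjusted p = 3.03e-06 and 7.27e-07). The +36.9 kb region was lower, at log2 -0.65 ± 0.12 SE and -1.0 ± 0.08 SE (adjusted p = 1.72e-04 and 4.03e-09). The atrial call of the +36.9 kb region was lost with library totals (log2 -0.17, adjusted p = 0.167). It was also lost with scaling on the Neg regions and with a DNA mean of at least 100. Among regions with at least 300 DNA counts, the +36.7 kb region was at percentile 89.8 in atrium and 84.3 in ventricle, and the +36.9 kb region at 50.1 and 37.6.

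The ratio of their counts within a library does not depend on scaling. It was 0.581 to 0.628 in DNA, 1.19 to 2.20 in atrium and 1.76 to 2.13 in ventricle. The ratio was 2.90-fold higher in atrium than in DNA and 3.13-fold higher in ventricle than in DNA, with p = 0.00794 in each by a two-sided exact permutation test on log2 ratios, 5 libraries against 5. That is the smallest p this design allows, and adjusted over the 2 tests it is 0.00794. All 10 RNA libraries were above all 5 DNA libraries. The pair of regions shares sequence and is not 2 independent pieces of the locus.

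**Figure D3:**
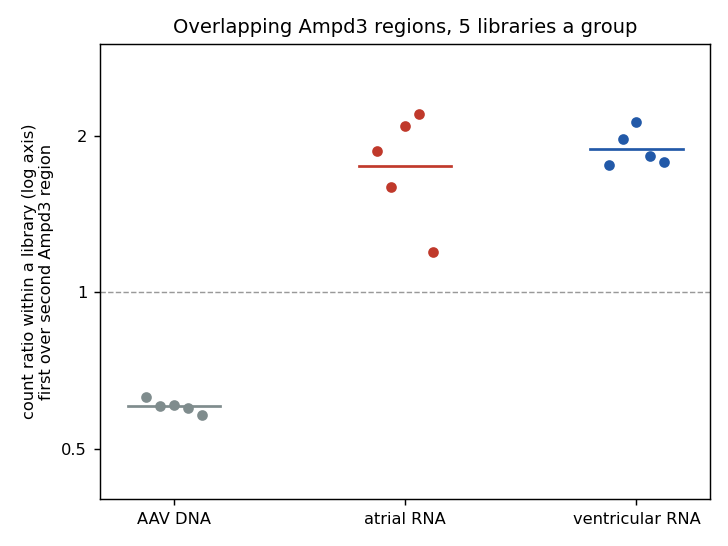
Counts of the +36.7 kb region of Ampd3 divided by those of the overlapping +36.9 kb region in the same library (y axis, log scale), for 5 libraries in each group; horizontal lines are means of log2 ratios. DNA libraries lie between 0.581 and 0.628, and every RNA library lies above 1.

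The last Ampd3 region, chr7:110782101-110782500 (+8.7 kb, inside the gene), was too scarce in the virus to be tested, with 3, 4, 3, 8 and 3 counts in the DNA libraries. In RNA it had 1 count in atrial replicate 1 and 276, 367, 405 and 283 counts in replicates 2 to 5. In ventricle it had 2 counts in replicate 1 and 492, 549, 705 and 568 counts in the others. On the CPM scale replicates 2 to 5 lay between 151 and 180 in both chambers, while replicate 1 was at 0.949 and 1.34. The 2 libraries numbered 1 were thus low together, with the deeper libraries alike across chambers. No fold over DNA is given from so few DNA counts.

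None of the 4 Mb regions was called above DNA in either chamber with TMM. Each of the other 5 loci had at least 1 such region. Of all tested regions, 38.4% were called above DNA in atrium and 43.4% in ventricle, so nothing is read from this lack of calls among 4 regions. Mb -5.1 kb passed in atrium with library totals. It also passed with scaling on the Neg regions (log2 0.67, edgeR adjusted p = 0.0316) and with a DNA mean of at least 100 (log2 0.69, edgeR adjusted p = 0.0235). The region at chr15:77003739-77004138 lies 11549 bp beyond the end of the gene (+18.8 kb). Its DNA stood at 410, 378, 499, 368 and 403 CPM, its atrial RNA at 87.3, 108, 47.7, 69.7 and 101 CPM and its ventricular RNA at 67.0, 68.6, 72.2, 85.9 and 70.4 CPM. Every RNA library was far below every DNA library, and the chambers overlapped. RNA was 5.21-fold below DNA in atrium (log2 -2.38 ± 0.20 SE, adjusted p = 9.74e-08) and 5.42-fold below in ventricle (log2 -2.44 ± 0.11 SE, adjusted p = 4.23e-12). Among regions with at least 300 DNA counts it was at percentile 3.40 in atrium and 4.33 in ventricle.

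The region at chr15:77027674-77028073 (-5.1 kb, within the annotated body because other transcripts start farther out) had atrial RNA at 217, 179, 134, 240 and 442 CPM, ventricular RNA at 136, 85.9, 74.7, 101 and 122 CPM and DNA at 190, 192, 232, 170 and 178 CPM. Ventricular libraries were below all DNA libraries, and atrial replicate 5 was well above the rest of its group. Ventricular RNA was below DNA at log2 -0.84 ± 0.16 SE (adjusted p = 1.07e-04). Atrial RNA did not pass at 0.27 ± 0.26 SE, was -0.06 without atrial replicate 5, and passed with library totals at 0.75. Atrium over ventricle was log2 1.23 ± 0.28 SE, and 0.88 without atrial replicate 5, with atrium higher in all 5 same-numbered pairs.

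The region at chr15:77018819-77019218 (+3.7 kb), nearest to an Mb start, was at 62.6 CPM in atrium, 51.9 in ventricle and 111 in DNA. It was below DNA at log2 -0.89 ± 0.15 SE and -1.03 ± 0.20 SE (adjusted p = 1.32e-04 and 1.57e-04). The region at chr15:77036714-77037113 (+13.8 kb from the farthest Mb start) was rare. Its atrial RNA stood at 8.54, 16.0, 0.823, 10.2 and 1.69 CPM, its ventricular RNA at 6.70, 2.33, 3.84, 0.762 and 0.314 CPM and its DNA at 13.4, 10.004, 15.6, 9.16 and 9.72 CPM. Its RNA was the lowest of the tested members in both chambers and rested on 1 to 29 counts a library. Ventricular RNA was below DNA at log2 -2.17 ± 0.52 SE (adjusted p = 1.12e-03), and atrial RNA did not pass at -0.71 ± 0.57 SE. Its atrium over ventricle of 1.51 ± 0.84 SE was the largest in the Mb locus and was within 2 SE. In their DNA count classes the percentiles in atrium and ventricle were 10.1 and 2.69 at +13.8 kb, 14.9 and 11.8 at +3.7 kb, and 78.8 and 43.8 at -5.1 kb.

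Between chambers, 9 of the 24 regions were called higher in atrium and 4 higher in ventricle. In the pool 15.8% and 15.1% of tested regions were called in these directions. Since the loci were chosen with this comparison known, nothing is read from the counts. The libraries of the chambers did not overlap for 4 regions with atrium above (Ampd3 +14, Sardh +40.8 and +51.4, Ddc +61.5 kb) and 3 with ventricle above (Coq8a -14.4, Idh2 -15.3, Ddc -3.4 kb), against 10.5% and 12.2% of all tested regions. Without replicate 1, 11 of the 13 calls were made, and the values of Ddc +65.8 and -3.4 kb were -0.80 and -0.33. Some of the 13 calls were narrow. That at Ddc +45.8 kb lay just under the threshold and was lost in 7 of 10 fits that left out 1 library (0.32 to 0.53). It was also lost with library totals, with voom, with no DNA filter and with a DNA mean of at least 100. The call at Sardh +46.6 kb was lost without atrial replicate 2 or ventricular replicate 2 or 4 (0.67, 0.70 and 0.68). At Ddc +65.8 kb it was lost without ventricular replicate 5 (-0.76). Without atrial replicate 4, Sardh +48.2 kb was called higher in ventricle, at -0.26 against -0.20 with it. The members' median log2 atrium over ventricle was 0.17, beside 0.03 over all tested regions.

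**Figure D4:**
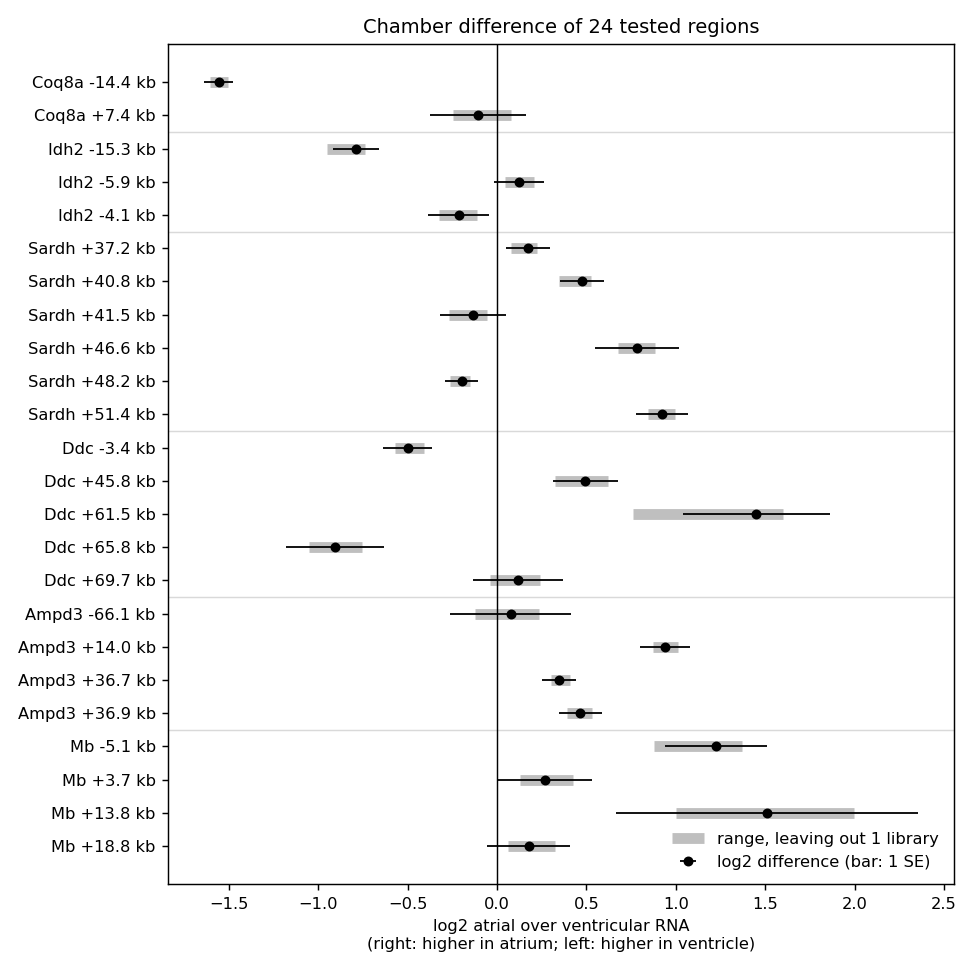
Log2 of atrial over ventricular reporter RNA (x axis, black points, bars 1 SE, 5 libraries a chamber) for the 24 tested regions, with the range on leaving out 1 library in grey. Coq8a -14.4 kb lies farthest to the left with a narrow range, and Ddc +61.5 kb has a wide one, from 0.76 to 1.60.

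Deposited tags describe how regions were put in the pool, and their abbreviations are given as they stand. Of the 24 tested regions, 16 carried the tag GeneAVB, of which 9 were called higher in atrium and 2 in ventricle, and 5 carried vMTF+p300, of which 0 were called higher in atrium and 2 in ventricle. In the pool, 20.7% and 13.8% of the 715 tested regions tagged GeneAVB were called in these directions, and 11.7% and 30.1% of the 349 tagged vMTF+p300. The members' counts rest on the same comparison that chose the loci. The 3 members that the series table groups as spMTF or spP300 (Coq8a -14.4, Idh2 -4.1 and Ampd3 -66.1 kb) were above DNA in both chambers, where 35.6% of the 520 tested regions of that label were.

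Regions of other genes in the same pathways were few. Lists of purine, sarcosine and one-carbon, aromatic amine, citrate cycle, coenzyme Q and oxygen and muscle energy genes held 113 genes outside the 6 loci, of which 18 had a region, 23 regions in all and 13 tested. The sarcosine and coenzyme Q lists had 0. Of the 13, atrial RNA was above DNA for 7 and below for 5, and ventricular RNA above for 8 and below for 4. The medians of log2 RNA over DNA were 0.72 and 1.17, beside 0.04 and 0.13 over all tested regions. Few of the 13 were common in the virus: 4 had 10 to 100 DNA counts, 7 had 100 to 300 and 2 had at least 300. Over the whole pool these classes held 854, 570 and 1177 tested regions. The part of DNA abundance in these medians was not tested. Against the median of its own DNA count class, RNA over DNA was higher for 7 of the 13 in atrium and 8 in ventricle. By list, the tested regions above and below DNA in atrium were 1 and 0 of 1 for purines, 1 and 2 of 3 for aromatic amines, 2 and 2 of 4 for the citrate cycle, and 3 and 1 of 5 for oxygen and muscle energy. In ventricle they were 1 and 0, 1 and 2, 2 and 1, and 4 and 1.

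Between chambers 1 of the 13 was called higher in atrium and 1 higher in ventricle, where 15.8% and 15.1% of all tested regions were. The region in Adk (adenosine kinase, which returns adenosine to AMP), at chr14:21359938-21360337, was higher in atrium at 62.0 ± 30.6 against 32.8 ± 7.51 CPM (SD, n = 5; log2 0.92 ± 0.33 SE, edgeR adjusted p = 0.0440). The region in Lpl (lipoprotein lipase, which frees fatty acids for muscle), at chr8:68902817-68903216, was higher in ventricle at 155 ± 35.0 against 100 ± 27.5 CPM (log2 -0.63 ± 0.22 SE, edgeR adjusted p = 0.0368). The libraries of the chambers overlapped in both. In Dbh, the neighbour of Sardh, the region at chr2:27181940-27182339 was below DNA at log2 -1.24 in atrium and -0.83 in ventricle, and its chamber difference of -0.30 ± 0.13 SE did not pass.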

How the data were processed

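The authors deposited raw counts, as whole numbers for every region in each library, with no normalization. Per the submitters' processing notes, cutadapt 2.5 and Bowtie2 2.3.4.3 were used, with mm10 as the build. Per the labels' protocols, the primer that copied RNA and AAV genomes had a molecular identifier. The sources used here do not say whether reads or molecules were counted. The table of the whole series and the files of the samples differed in 0 values.

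The members and gene lists were chosen with earlier results of these data known. Each comparison was fitted with the robust quasi-likelihood test of edgeR 4.0.16 (R 4.3.3, TMM) on 5 and 5 libraries, over 2601 regions with a mean of at least 10 DNA counts, with Benjamini-Hochberg adjustment over all of them and calls at an adjusted p under 0.05. SE is the log2 fold change over the root of F. The fit was tested on simulated data. Every tested member is described, and values in every library are given, in each locus, for the region with the largest chamber difference and that with the highest RNA over DNA, and for others the text turns on, taken after their values were seen. Regions most like the upstream Coq8a region were named by correlation, and 1 that this rule selected is not reported here. Pathway regions were named where called between chambers, with Dbh added as a neighbour. Deviations of same-numbered atrial and ventricular libraries from their group means were correlated (r = 0.23 to 0.82, all above 0.1). Those of RNA and DNA libraries were not (-0.03 to 0.06). The group means include replicate 1, so the values of replicates 2 to 5 are not independent of it. Libraries of unlike number were not compared, so whether the numbers pair atrial and ventricular libraries was not settled. Alternatives were library totals, scaling on the regions grouped as Neg, DESeq2 1.42.0, limma 3.58.1 with voom, other filters on DNA counts, other gene assignments, replicates 2 to 5, the replicate block and leaving out each library. Ties between gene bodies went to the shorter gene.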

Additional observations from a re-analysis of the deposited data

Results flagged for a closer look

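In 75 groups of 5 libraries, 6 had an end value far from the other 4 by Dixon's criterion on log2(CPM + 1), and chance flags about 1 in 20 groups. At the Ampd3 region chr7:110782101-110782500, replicate 1 was lowest in atrial RNA at 0.949 CPM (others 151 to 180) and in ventricular RNA at 1.34 CPM (others 151 to 179). At the Coq8a region chr1:180210183-180210582, DNA replicate 3 was lowest at 76.8 CPM (others 96.4 to 105). Atrial replicate 5 was highest at the Ddc region chr11:11828700-11829099 at 315 CPM (others 67.4 to 87.5) and at the Idh2 region chr7:80130434-80130833 at 1265 CPM (others 761 to 870). At the Ddc region chr11:11901387-11901786, ventricular replicate 1 was highest at 470 CPM (others 357 to 383). The Ampd3 region chr7:110782101-110782500 also had RNA while too scarce in DNA to be tested, with a median of 162 CPM over replicates 2 to 5 of both chambers (151 to 180).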

How the results depend on the processing

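Between 19 and 25 of the 25 regions were tested, depending on the DNA filter and the gene assignment. The number called stayed between 13 and 19 for atrium over DNA, 16 and 22 for ventricle over DNA and 11 and 13 for atrium over ventricle, over all alternatives, beside 18, 20 and 13 of 24. With the replicate number as a block the counts were again 18, 20 and 13, and no call of a tested member changed. Splits of higher and lower calls moved with the scaling. For atrium over DNA, 9 higher and 9 lower became 13 and 4 when scaled by library totals, or 12 and 4 when scaled by the Neg regions. In the same order, ventricle over DNA went from 9 and 11 to 13 and 8 or 11 and 10, and atrium over ventricle from 9 and 4 to 8 and 4 or 9 and 3. The median of all tested regions moved from 0.04 to 0.51 and 0.44, from 0.13 to 0.50 and 0.29, and from 0.03 to 0.01 and 0.19. Of the 72 log2 values of the 24 regions, 12 changed sign in at least 1 alternative. Of these, 8 passed neither before nor after the change, and 4, at 3 regions, passed on at least 1 side. Idh2 -5.9 kb in atrium went from -0.05 to 0.43 with library totals, 0.35 with Neg scaling and 0.37 with a DNA mean of at least 100, and in ventricle from -0.06 to 0.32 with library totals and 0.34 with the higher DNA mean. Sardh +41.5 kb in ventricle went from -0.07 to 0.31 and 0.32 in those settings. Idh2 -15.3 kb in ventricle went from 0.22 to -0.018 with no DNA filter. The cause was not tested. Calls of Mb +13.8 kb, with 21 to 36 DNA counts a library, and of Ampd3 -66.1 kb, with 19 to 30, rest on the least depth.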
